A study of Homo sapiens with 5 samples.

Results

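The comparison of 18 h with 6 h of interferon-gamma (IFN-gamma) in T84 cells rested on 4 Affymetrix arrays, chosen by their titles from the 5 of the series: 2 titled 18 h and 2 titled 6 h, each group of cultures given the cytokine at 1000 U/ml. T84 is an established human colon carcinoma line, a single cell type used as a model of intestinal crypt epithelium, and the labels state standard growth conditions without saying whether the cells formed a polarised layer. The titles call the arrays biological replicates and give each a number, but nothing says how the cultures were kept apart, so the spread between them may be partly technical. The fifth array, untreated and described as a pool, took no part in the 18 h against 6 h differences and is given beside the label check. Each array held 7018 probe sets, and the values are intensities on a linear scale, of which 25.3% to 29.5% per array are negative. Values under 20 were set to 20 before the log2 was taken, and the 4933 probe sets above 20 on at least 1 of the 4 arrays were compared. The other 2085 were at or below this floor on every array. Each gene was represented by its brightest probe set, by the mean over the 4 arrays, which gave 3721 genes.

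IFN-gamma is made by activated T cells and natural killer cells. It binds a receptor of the chains IFNGR1 and IFNGR2, whose JAK kinases phosphorylate STAT transcription factors, and the first genes to respond include transcription factors of the IRF family. In intestinal epithelium the cytokine is known for raising antigen presentation, chemokines that draw T cells, antiviral proteins and the tryptophan-degrading enzyme IDO1, and for loosening the barrier between cells. Direct targets of the pathway are read early, and those that need newly made IRF proteins or the class II transactivator follow later. The comparison of the titled times asks which genes differ between the later and the earlier time.

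The arrays were first read against their labels. The transcription factor IRF1, a direct target of the pathway, had an intensity of 14 on the array that is labelled 6 h replicate 1. On 6 h replicate 2 it was 907, and the 18 h arrays had 933 and 921. The array labelled untreated read 1086. The chemokine CXCL10 likewise had 41 and 1149 at 6 h and 1260 and 1399 at 18 h, and 1317 on the array labelled untreated. On IRF1 and CXCL10 the array labelled 6 h replicate 1 thus goes against its label, as does the one labelled untreated. The groups below are kept as the titles give them. The 6 h arrays are therefore given one by one, and family medians against each are given for the main lists. IDO1, by contrast, had 88 and 153 at 6 h and 903 and 906 at 18 h, with 113 on the array labelled untreated. ISG15 had 265 and 315 at 6 h and 1025 and 1089 at 18 h, with 176 on the array labelled untreated.

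The 6 h arrays also differed more from each other than the 18 h arrays did. The correlation of log2 intensities over the probe sets compared was 0.83 between the 6 h arrays and 0.92 between the 18 h arrays. The highest of all, 0.93, was that of 6 h replicate 2 with 18 h replicate 1. The median absolute gap over genes was 0.58 on the log2 scale between the 6 h arrays and 0.36 between the 18 h arrays, and 234 genes against 76 were more than 4-fold apart. Intensities spread with an SD of 410 and 245.2 at 6 h and of 258.4 and 349.7 at 18 h, while the medians lay between 32 and 39. No 2 of the 4 arrays shared more than 122 equal values. All 16 colon epithelium markers were above the floor on at least 1 array, with summed intensities of 24225 and 12802 at 6 h and 13529 and 19025 at 18 h. Of the T cell and natural killer markers 5 of 10 were above it on any array, at sums of 263 to 415, and CD3G, CD8A, NKG7, GNLY and IFNG itself were not. Of the myeloid markers 2 of 6 were, at sums of 55 to 126, without CD14, CD163, ITGAM or FCER1G. All 3 B cell markers were, at sums of 1 to 105, and 6 of 9 fibroblast and endothelium markers, at sums of 254 to 385, without COL1A2, LUM or VWF.

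In limma's moderated test 0 of 4933 probe sets passed an adjusted p of 0.05, the smallest being 0.996, and 168 had an unadjusted p under 0.05, with 84 (1.7%) in each direction. No gene below passed the test, and all those given with values had an adjusted p of 0.996. An exact permutation test of 2 arrays against 2 cannot give a two-sided p below 0.333, so single genes are described by their arrays. A gene is called higher or lower at 18 h where both 18 h arrays lay beyond both 6 h arrays. By this rule 453 of 3721 genes (12.2%) were higher and 518 (13.9%) were lower, which is the background against which each family is set. Among the higher genes, 150 (4.03% of all) had an 18 h mean at least 1.5-fold over each 6 h array, and 122 (3.28%) were that far above the array labelled 6 h replicate 1 alone. Among the lower genes the counts were 144 (3.87%) and 130 (3.49%). The remaining genes rested on 6 h replicate 2 alone or were smaller than 1.5-fold against each. Near this line lay PTPRU, a receptor phosphatase, at 1.51-fold over 6 h replicate 2, and CXCL9, at 1.41-fold. The median difference over all genes was -0.04 on the log2 scale.

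The genes of the interferon response were more often higher at 18 h than the 3721 genes as a whole. Of 97 such genes measured in 11 families, 42 were higher at 18 h (43.3%) and 4 were lower (4.12%), with a median difference of 0.51 on the log2 scale. Of the 42 higher genes, 19 exceeded both 6 h arrays by 1.5-fold, 17 exceeded the array labelled 6 h replicate 1 alone, and the others rested on 6 h replicate 2 alone or were smaller. The median was 0.79 against that array and 0.20 against 6 h replicate 2. Without the array labelled 6 h replicate 1, 47 interferon genes (48.5%) were above the single remaining 6 h array on both 18 h arrays, beside 25.1% of all genes, and 21 (21.6%) were below it, beside 39.5%. With any 1 of the other arrays left out instead, between 54.6% and 68.0% were higher, beside 25.6%, 25.9% or 33.9% of all genes. No p-value is attached to these shares, since the genes of a family share their regulation and the lists were chosen with earlier results known. The plot of every gene against each 6 h array shows where the interferon genes lie.

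**Figure D1:**
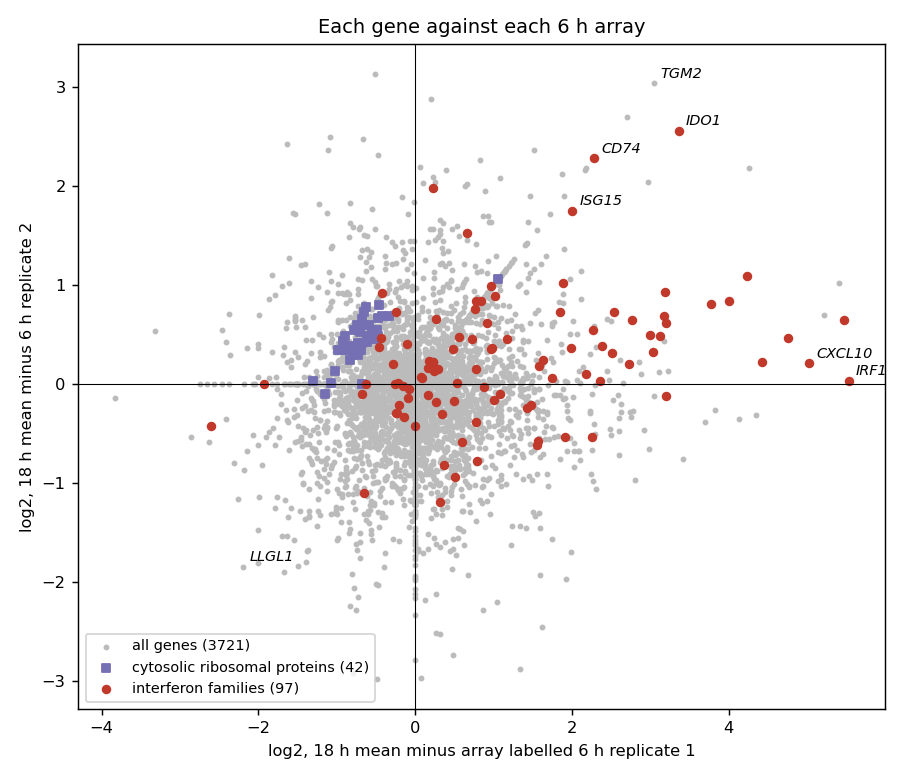
Each of 3721 genes by the log2 difference of the 18 h mean from the array labelled 6 h replicate 1 (horizontal) and from 6 h replicate 2 (vertical). Red points are 97 interferon genes, purple squares 42 ribosomal protein genes; IRF1 and CXCL10 lie far right near zero on the vertical axis, IDO1, ISG15, TGM2 and CD74 far from zero on both.

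The start regions of the interferon genes carried the known binding motifs of this pathway more often than those of all genes compared. The lists were drawn up as genes of this response, so this contrast describes the lists and not the times. The motifs searched on both strands were the interferon-stimulated response element (ISRE), written GAAANNGAAA, which IRF proteins bind, and the gamma-activated site (GAS), written TTCNNNGAA, which STAT dimers bind. Both contain GAA, so matches can overlap, and each motif was counted on its own. In all cases the window was the 250 bases before each start in the RefSeq table of build GRCh38.p14. Of all 35116 promoters listed there, 3.02% held an ISRE and 6.57% a GAS, and of the 2983 compared genes with a promoter 2.92% and 5.53% did. Among the 74 interferon genes with a promoter, 21 (28.4%) held an ISRE and 12 (16.2%) a GAS. The ISRE was found in 4 of 11 genes that were higher than both 6 h arrays, in 5 of 13 that were higher than the array labelled 6 h replicate 1 alone, and in 10 of 42 whose times overlapped. A GAS was found in 3, 1 and 6 of these genes. These matches describe the letters of the window and not occupied sites. The 4 promoters below were chosen among those with a match, because their genes stand for both patterns: ISG15 and PSMB10 were higher at 18 h than on both 6 h arrays, while CXCL10 and IRF1 differed from the array labelled 6 h replicate 1 alone. Capitals mark the ISRE in the first 3, where ISG15 has overlapping matches, and the GAS in IRF1. The positions are those of chr1:1013247-1013496 on the plus strand for ISG15, chr16:67936851-67937100 on the minus strand for PSMB10, chr4:76023498-76023747 on the minus strand for CXCL10 and chr5:132490774-132491023 on the minus strand for IRF1.
ISG15: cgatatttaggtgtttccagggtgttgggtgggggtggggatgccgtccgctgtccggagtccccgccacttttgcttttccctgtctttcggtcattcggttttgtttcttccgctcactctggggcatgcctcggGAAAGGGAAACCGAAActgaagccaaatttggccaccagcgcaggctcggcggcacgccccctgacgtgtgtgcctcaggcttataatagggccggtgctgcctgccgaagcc
PSMB10: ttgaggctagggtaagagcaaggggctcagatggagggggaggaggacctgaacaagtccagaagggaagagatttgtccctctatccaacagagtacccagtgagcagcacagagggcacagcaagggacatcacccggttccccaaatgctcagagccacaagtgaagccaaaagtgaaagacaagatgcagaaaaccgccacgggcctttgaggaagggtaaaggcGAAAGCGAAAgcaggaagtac
CXCL10: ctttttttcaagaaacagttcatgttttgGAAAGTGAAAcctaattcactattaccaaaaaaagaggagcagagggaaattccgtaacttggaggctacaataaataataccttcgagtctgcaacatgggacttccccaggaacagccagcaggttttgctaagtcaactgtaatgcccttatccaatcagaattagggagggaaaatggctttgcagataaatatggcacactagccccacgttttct
IRF1: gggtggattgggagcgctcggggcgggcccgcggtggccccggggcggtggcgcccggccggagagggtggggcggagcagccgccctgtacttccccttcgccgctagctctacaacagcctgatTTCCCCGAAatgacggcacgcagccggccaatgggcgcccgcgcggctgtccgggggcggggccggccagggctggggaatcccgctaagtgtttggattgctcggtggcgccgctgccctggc
The overlapping ISRE matches began 113 and 107 bases before the start of ISG15, and the ISRE began 21 bases before that of PSMB10 and 221 before that of CXCL10. The GAS of IRF1 began 124 bases before its start.

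The 5 genes that mark the comparison were IDO1, ISG15, TGM2, CD74 and LLGL1. They were named in advance as its markers, so their separation of the times on both 6 h arrays is no independent evidence. Of the 4 arrays compared, those of 18 h alone had TGM2 and CD74 above 20. Throughout, values are given in the order replicate 1, replicate 2 within each time. IDO1 (probe set M34455_at, chromosome 8), which degrades tryptophan to kynurenine, had 88 and 153 at 6 h against 903 and 906 at 18 h. Its 18 h mean was 10.3-fold over the array labelled 6 h replicate 1 and 5.91-fold over 6 h replicate 2, a difference of 2.96 (SE 0.41) on the log2 scale. The arrays at 18 h were almost equal, and those at 6 h lay far below them. ISG15 (probe set M13755_at, chromosome 1), a ubiquitin-like protein that is joined to other proteins and also secreted, had 265 and 315 at 6 h against 1025 and 1089 at 18 h. That was 3.99-fold and 3.35-fold over the 6 h arrays, with a log2 difference of 1.87 (SE 0.33). Neither gene rested on one 6 h array. TGM2 (probe set M55153_at, chromosome 20), the tissue transglutaminase that cross-links proteins and is the autoantigen of coeliac disease, had -8 and -11 at 6 h against 189 and 144 at 18 h. Both 6 h arrays were under the floor, so its 18 h mean was at least 8.25-fold higher. CD74 (probe set M13560_s_at, chromosome 5), the invariant chain that guides MHC class II molecules to the endosome, had -23 and -20 at 6 h against 116 and 81 at 18 h, at least 4.85-fold higher. LLGL1 (probe set X86371_s_at, chromosome 17), a scaffold that defines the basolateral side of epithelial cells, went the other way with 143 and 112 at 6 h against 26 and 37 at 18 h. It was 4.61-fold and 3.61-fold higher on the 6 h arrays than in the 18 h mean, a log2 difference of -2.03 (SE 0.37).

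**Figure D2:**
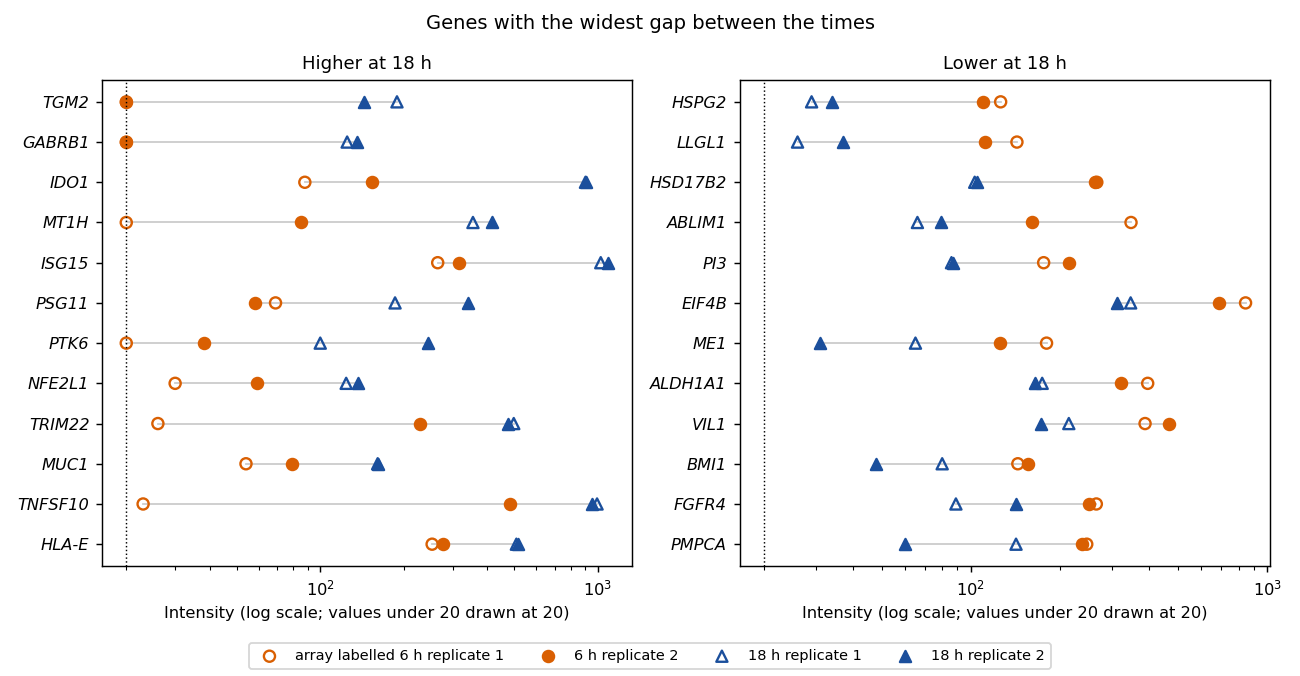
Intensity (log axis, values under 20 drawn at 20) of the 12 genes with the widest gap between the times in each direction; circles are the 6 h arrays (open: the array labelled 6 h replicate 1), triangles the 18 h arrays. The 18 h arrays lie apart from both circles in every row, from TGM2 and HSPG2 at the top to HLA-E and PMPCA, because the genes were chosen by this gap.

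The proteasome genes that cut peptides for MHC class I were higher at 18 h. All 4 genes of the immunoproteasome and its PA28 activator were higher, 3 of them over both 6 h arrays, with a median of 1.5 on the log2 scale, 2.30 against the array labelled 6 h replicate 1 and 0.69 against replicate 2. PSMB9, one of the catalytic subunits that replace those of the constitutive proteasome, had 156 and 1208 at 6 h against 1848 and 2443 at 18 h. Its 18 h mean was 1.76-fold over 6 h replicate 2 and 13.6-fold over the array labelled 6 h replicate 1. PSMB8, another such subunit, had 165 and 711 at 6 h against 1110 and 1129 at 18 h. The order of the arrays was thus the same for both subunits, with 6 h replicate 2 between the other 6 h array and the 18 h pair. PSMB10, the third catalytic subunit, had 376 and 813 at 6 h against 1239 and 1470 at 18 h. PSME1, which opens the proteasome's gate as part of PA28, had 838 and 1015 at 6 h against 1302 and 1471 at 18 h and passed 1.5-fold against the array labelled 6 h replicate 1 alone. Among the 48 genes of the constitutive proteasome and the ubiquitin enzymes, by comparison, 5 were higher (10.4%) and 5 lower, with a median of 0.02.

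Of the 5 class I genes, 3 were higher and none lower, with a median of 0.95 that was 0.97 against the array labelled 6 h replicate 1 and 0.46 against replicate 2. HLA-E, a nonclassical class I molecule read by natural killer cells, had 253 and 277 at 6 h against 509 and 515 at 18 h. HLA-F, a related nonclassical molecule, had 473 and 465 at 6 h against 846 and 1011 at 18 h. In both genes the 6 h arrays were close to each other, and the 18 h mean was 2.02-fold and 1.85-fold over them for HLA-E. TAP1, one chain of the transporter that carries peptides to class I molecules, had 61 and 1208 at 6 h against 1346 and 2038 at 18 h and rested on the array labelled 6 h replicate 1 alone at the 1.5-fold line, being 1.37-fold over 6 h replicate 2.

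Of the 16 class II and antigen processing genes, 7 were higher (43.8%) and none lower, with a median of 0.47, or 0.51 and 0.37 against the same arrays. Apart from CD74, HLA-DRA, the constant chain of the HLA-DR dimer, had 105 and 100 at 6 h against 179 and 179 at 18 h. IFI30, a lysosomal reductase that opens the disulfide bonds of antigens, had 116 and 549 at 6 h against 929 and 1184 at 18 h. The first of these was level on the 6 h arrays, whereas the second had a wide gap between them and was still 1.91-fold over the nearer one. LGMN, the lysosomal protease legumain, had 342 and 562 at 6 h against 737 and 801 at 18 h. HLA-DMB, a chain of the molecule that exchanges class II peptides, had 85 and 131 at 6 h against 152 and 186 at 18 h. Both were past 1.5-fold against the array labelled 6 h replicate 1 alone, at 1.37-fold and 1.28-fold over 6 h replicate 2. HLA genes are close copies of one another, so their probe sets may read more than one of them.

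In the antiviral family 20 of 20 measured genes had a difference above 0, 11 were higher at 18 h (55.0%) and none lower. The median was 0.71, beside -0.04 over all genes. It was 1.24 against the array labelled 6 h replicate 1 and 0.38 against replicate 2. Without the array labelled 6 h replicate 1, 12 were above and 3 below the remaining 6 h array. Of all genes 25.1% were above it and 39.5% below. ISG20, an exonuclease that acts on RNA, had 448 and 809 at 6 h against 1436 and 1887 at 18 h. Its 18 h mean was 3.67-fold and 2.03-fold over the 6 h arrays. OASL, a relative of the oligoadenylate synthetases that strengthens RNA sensing, had 86 and 300 at 6 h against 520 and 477 at 18 h. IFI35, which binds other interferon-induced proteins, had 118 and 656 at 6 h against 1006 and 1121 at 18 h, while its second, dim probe set overlapped. On the leading probe sets all these genes were higher than both 6 h arrays by 1.5-fold, with the array labelled 6 h replicate 1 lowest. EIF2AK2, the double-stranded RNA kinase PKR, had 217 and 330 at 6 h against 437 and 405 at 18 h and rested on that array alone. IFIT3, which helps to bind foreign RNA, had 81 and 805 at 6 h against 677 and 816 at 18 h. Its times overlapped, since 6 h replicate 2 lay between the 18 h arrays.

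**Figure D3:**
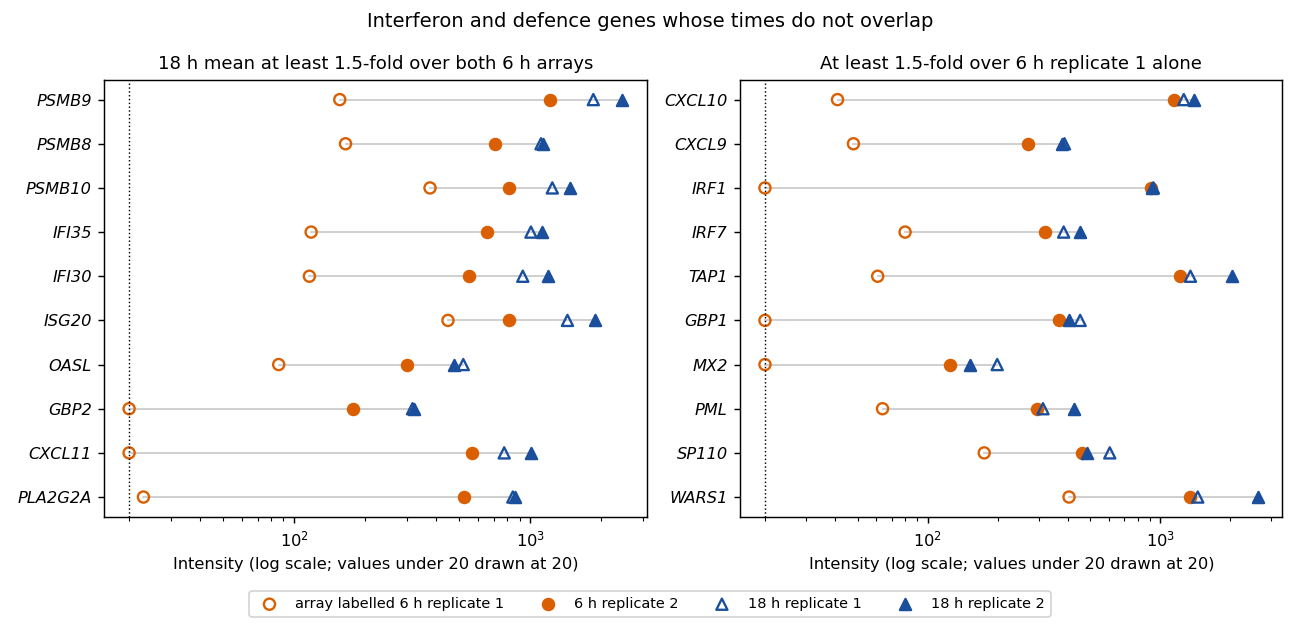
Intensity (log axis, values under 20 drawn at 20) of interferon and defence genes that were higher at 18 h; left, 18 h mean at least 1.5-fold over both 6 h arrays, right, over the array labelled 6 h replicate 1 alone. On the right the filled circle of 6 h replicate 2 lies next to the triangles of 18 h, as for IRF1 at 907 against 933 and 921.

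Several of the best-known IFN-gamma targets belonged to the group that rests on the array labelled 6 h replicate 1. All 3 chemokines that bind CXCR3, the receptor of activated T cells, were higher at 18 h, with a median of 5.02 on the log2 scale against that array and 0.49 against 6 h replicate 2. CXCL10, whose values are given above, was 32.4-fold over the first and 1.16-fold over the second. CXCL9 had 48 and 271 at 6 h against 387 and 376 at 18 h. CXCL11 had -9 and 567 at 6 h against 775 and 1007 at 18 h and was the one of the 3 that passed 1.5-fold against 6 h replicate 2, at 1.56-fold. Among 12 other chemokines 2 were higher and 2 lower, with a median of 0.04. CXCL8, which attracts neutrophils, had 275 and 61 at 6 h against 38 and 54 at 18 h, so on this probe set its lower level at 18 h rested on the array labelled 6 h replicate 1. A second, dimmer CXCL8 probe set, with 73 and 37 at 6 h against 15 and -1 at 18 h, was lower than both 6 h arrays by 1.5-fold.

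Of 8 interferon regulatory factors 2 were higher, IRF1 and IRF7, and both rested on the array labelled 6 h replicate 1. IRF7, which drives type I interferon genes, had 80 and 319 at 6 h against 384 and 451 at 18 h. The family's median was 0.25, with 0.93 against that array and -0.01 against 6 h replicate 2. IRF8 had 40 and 170 at 6 h against 200 and 165 at 18 h, an overlap. The receptor, JAK kinases, STATs and feedback genes gave 2 higher and 1 lower of 13, with medians of 0.51 and -0.24 against the same arrays. IFNGR1, the ligand-binding receptor chain, had 62 and 169 at 6 h against 113 and 69 at 18 h. IFNGR2, the second chain, had 159 and 165 at 6 h against 153 and 118 at 18 h, which is lower at 18 h by less than 1.5-fold. JAK1, a kinase attached to the receptor, had 4 and 88 at 6 h against 94 and 37 at 18 h. IFNGR1 and JAK1 thus overlapped between the times. STAT3 had 104 and 725 at 6 h against 480 and 515 at 18 h, and its highest value was that of 6 h replicate 2. JAK2 was not analysed here.

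Of the 4 interferon-induced GTPases 3 were higher at 18 h, with medians of 3.56 against the array labelled 6 h replicate 1 and 0.35 against replicate 2. GBP1, a guanylate-binding protein that coats intracellular bacteria and vacuoles, had 8 and 368 at 6 h against 452 and 405 at 18 h. GBP2, its close relative, had 15 and 178 at 6 h against 317 and 322 at 18 h and was 1.79-fold over 6 h replicate 2. MX2, a GTPase that restricts viruses, had 20 and 125 at 6 h against 199 and 152 at 18 h. MX1, its relative, had 149 and 746 at 6 h against 873 and 669 at 18 h, an overlap. Thus GBP2 alone among them stood 1.5-fold over both 6 h arrays. Among 7 genes of the TRIM family and the nuclear bodies 3 were higher and 1 lower, with medians of 1.63 and -0.10 against those arrays. TRIM22, an antiviral ubiquitin ligase, had 26 and 229 at 6 h against 498 and 475 at 18 h, 2.12-fold over the nearer 6 h array. PML, the organiser of nuclear bodies, had 64 and 295 at 6 h against 313 and 426 at 18 h. SP110, another nuclear body protein, had 175 and 459 at 6 h against 606 and 482 at 18 h. These last 2 rested on the array labelled 6 h replicate 1, at 1.24-fold and 1.18-fold over the other. Of the other PML probe sets, 1 was higher than both 6 h arrays (30 and 57 against 116 and 70) and 1 overlapped, as did a second SP110 probe set.

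The tryptophan family of 5 genes held IDO1 and 1 other higher gene, and its median was 0.16, or 0.16 and 0.20 against each 6 h array. WARS1, the tryptophanyl-tRNA synthetase, which charges tRNA with the amino acid that IDO1 degrades, had 405 and 1335 at 6 h against 1447 and 2621 at 18 h. It was 4.81-fold over the array labelled 6 h replicate 1 and 1.46-fold over replicate 2, with the 18 h arrays themselves 1447 and 2621.

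Genes of inflammation in further lists were mixed, and some genes stand in more than 1 list. HLA-E is counted with class I and with the ligands for lymphocyte contact, and ICAM1 with these ligands and with the NF-kB genes. Of 20 cell death genes 6 were higher (30.0%) and 1 lower, with a median of 0.21 that was -0.13 against 6 h replicate 2. TNFSF10, the death ligand TRAIL, had 23 and 481 at 6 h against 994 and 956 at 18 h. It was 2.03-fold over 6 h replicate 2 and 42.4-fold over the other. MCL1, which protects mitochondria from the death signal, had 249 and 250 at 6 h against 443 and 353 at 18 h. CASP5, an inflammatory caspase that senses bacterial lipopolysaccharide, had 33 and 26 at 6 h against 54 and 60 at 18 h and was dim on every array. TNFRSF1A, the main TNF receptor, had 67 and 459 at 6 h against 499 and 485 at 18 h, resting on the array labelled 6 h replicate 1.

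The complement list of 11 genes split into 4 higher, all over both 6 h arrays, and 3 lower. The median of 0.08 was 0.82 against the array labelled 6 h replicate 1 and 0.05 against replicate 2. The higher genes were C2, C1S, CFB and SERPING1, and the last of these encodes the inhibitor of C1. CFB, factor B of the alternative pathway, had 258 and 278 at 6 h against 409 and 623 at 18 h. C2, the matching protease of the classical pathway, had 54 and 17 at 6 h against 110 and 83 at 18 h, with 6 h replicate 2 under the floor. SERPING1 had 102 and 127 at 6 h against 211 and 197 at 18 h. C1S, a protease of the C1 complex, had -15 and 4 at 6 h, under the floor, against dim values of 39 and 35 at 18 h. Components and an inhibitor were thus both among the higher genes.

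Of 17 ligands for lymphocyte contact 5 were higher (29.4%) and 3 lower (17.6%), with a median of 0.33, or 0.22 against either 6 h array alone. LGALS9, a galectin that binds T cells, had 353 and 307 at 6 h against 518 and 858 at 18 h. A second probe set of this gene overlapped between the times. MICB, a stress ligand of the killer cell receptor NKG2D, had 65 and 49 at 6 h against 97 and 103 at 18 h. ICAM1, the adhesion molecule for leukocytes, had -38 and 359 at 6 h against 229 and 197 at 18 h. Its 6 h arrays enclosed both 18 h arrays, so it overlapped although its mean difference was 1.33 (SE 1.40). Of 11 NF-kB genes 4 were higher (36.4%) and none lower, but 1 of them, TRAF1, passed 1.5-fold against both 6 h arrays. TRAF1 was dim, with 20 and 4 at 6 h, at or below the floor, against 33 and 46 at 18 h. RELB, a subunit of the noncanonical pathway, had 125 and 82 at 6 h against 164 and 166 at 18 h and rested on 6 h replicate 2 alone. TNFAIP3, a feedback inhibitor, had 148 and 224 at 6 h against 279 and 283 at 18 h and rested on the array labelled 6 h replicate 1.

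In the antimicrobial and oxidant family 8 of 16 genes were lower at 18 h, against 13.9% of all genes, and 2 were higher. The median was -0.24, or -0.15 against the array labelled 6 h replicate 1 and -0.35 against replicate 2. PI3, an elastase inhibitor also called elafin, had 176 and 215 at 6 h against 86 and 87 at 18 h. REG1B, a secreted lectin-like protein, had 43 and 51 at 6 h against 16 and 28 at 18 h. SLPI, a second elastase inhibitor, had 282 and 216 at 6 h against 161 and 142 at 18 h, past 1.5-fold against the array labelled 6 h replicate 1 alone. Of the 8 lower genes 2 passed 1.5-fold against both 6 h arrays and 4 against the array labelled 6 h replicate 1 alone. Without that array 10 of 16 were below and 3 above the remaining 6 h array, on which 39.5% of all genes were below. PLA2G2A, a secreted phospholipase that kills Gram-positive bacteria, ran opposite with 23 and 525 at 6 h against 843 and 865 at 18 h. NOS2, the inducible nitric oxide synthase, had -22 and 509 at 6 h against 519 and 320 at 18 h. It overlapped, and its second probe set gave the opposite sign.

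Among genes of the epithelium outside host defence, the barrier and brush border lists held genes in both directions. Of 19 junction and polarity genes 2 were higher and 2 lower, and LLGL1 had the widest gap. CDH1, the E-cadherin of adherens junctions, had 331 and 553 at 6 h against 665 and 582 at 18 h, higher by 1.5-fold against the array labelled 6 h replicate 1 alone. Of 21 brush border and colonocyte genes 4 were higher (19.0%) and 5 lower (23.8%), with medians of -0.16 and -0.06 against the array labelled 6 h replicate 1 and replicate 2. VIL1 (chromosome 2), the actin-bundling villin of microvilli, had 387 and 466 at 6 h against 214 and 172 at 18 h. It was 2.02-fold and 2.43-fold higher on the 6 h arrays, and 6 h replicate 2 was the highest of the 4. SLC26A2, a sulfate transporter, had 69 and 48 at 6 h against 1 and 2 at 18 h and was under the floor at 18 h. CDX2, the transcription factor of intestinal identity, had 235 and 328 at 6 h against 417 and 377 at 18 h, resting on the array labelled 6 h replicate 1 alone. Of the 17 ion transport genes, which include those of the chloride secretion that T84 cells are used to study, 3 were higher and 3 lower. CFTR, the chloride channel, had 83 and 89 at 6 h against 105 and 230 at 18 h. The 18 h arrays were far apart, and its second, dim probe set overlapped. KCNQ1, a basolateral potassium channel, had 104 and 148 at 6 h against 88 and 52 at 18 h, though a second, dim probe set had the opposite sign.

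MUC1, the membrane mucin, had 54 and 79 at 6 h against 161 and 162 at 18 h. Its 18 h arrays were 2.99-fold and 2.04-fold over the 6 h arrays, while a second, dimmer probe set had the opposite sign. The trefoil peptide TFF3, which goblet cells secrete for repair of the surface, had 1046 and 621 at 6 h against 483 and 539 at 18 h. TFF1, another trefoil peptide, had 1075 and 646 at 6 h against 556 and 579 at 18 h. Both rested on the array labelled 6 h replicate 1. MT1H, a metallothionein that binds zinc and copper, had -59 and 85 at 6 h against 355 and 416 at 18 h, and MT2A, the main human metallothionein, had 967 and 1578 at 6 h against 1958 and 2841 at 18 h and passed 1.5-fold against the array labelled 6 h replicate 1 alone. The suffix of the MT1H probe set marks probes shared within the family, so it may read other metallothioneins. Of the 8 metallothioneins 2 were higher and 1 lower. TGM1, the other transglutaminase measured, had 29 and 68 at 6 h against 73 and 69 at 18 h, 1.04-fold over 6 h replicate 2, so it too rested on the array labelled 6 h replicate 1.

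Other genes among the 12 widest upward gaps, followed by FZD5 and KLF6 from the Wnt and immediate early lists, were these. GABRB1, a chain of the GABA-A receptor, had -38 and 13 at 6 h against 125 and 136 at 18 h. A second probe set of it, 23 and 9 against 18 and 38, overlapped. PTK6, a kinase of differentiating gut epithelium, had -67 and 38 at 6 h against 100 and 244 at 18 h. PSG11, one of a group of closely similar pregnancy glycoprotein genes whose probes may read each other, had 69 and 58 at 6 h against 186 and 341 at 18 h. NFE2L1, a transcription factor that restores proteasome genes, had 30 and 59 at 6 h against 124 and 137 at 18 h. FZD5, a Wnt receptor of the gut epithelium, had -4 and -4 at 6 h against 81 and 101 at 18 h and was under the floor at 6 h, so its 18 h mean was at least 4.52-fold higher. KLF6, a zinc finger factor of the immediate early list, had 204 and 243 at 6 h against 478 and 370 at 18 h.

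The genes with the widest downward gaps included steroid and retinoid enzymes, a growth factor receptor and matrix and cytoskeletal genes. HSD17B2 (chromosome 16), which inactivates estradiol and testosterone in the epithelium, had 266 and 263 at 6 h against 103 and 105 at 18 h. Its replicates were nearly equal at both times, and the level at 6 h was 2.56-fold and 2.53-fold that of the 18 h mean, a log2 difference of -1.35 (SE 0.31). HSPG2, the basement membrane proteoglycan perlecan, had 126 and 110 at 6 h against 29 and 34 at 18 h. A second HSPG2 probe set, with 23 and 64 against 21 and 38, overlapped. ABLIM1, an actin-binding protein, had 347 and 161 at 6 h against 66 and 79 at 18 h. FGFR4, a receptor of fibroblast growth factors, had 265 and 251 at 6 h against 89 and 142 at 18 h. The replicates of the last were closer at 6 h than at 18 h. BMI1, a polycomb repressor used as a stem cell marker in the intestine, had 144 and 156 at 6 h against 80 and 48 at 18 h. PMPCA, a chain of the peptidase that trims proteins imported by mitochondria, had 246 and 238 at 6 h against 142 and 60 at 18 h. ALDH1A1, which makes retinoic acid, had 395 and 322 at 6 h against 174 and 164 at 18 h. On the probe sets whose values lead each gene, all these lay at least 1.5-fold below both 6 h arrays, which follows from their choice by the gap.

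Several metabolic lists held more lower than higher genes. Of 41 NADPH and detoxification enzymes 13 were lower (31.7%) and 2 higher (4.88%), with a median of -0.18, or -0.11 and -0.25 against the array labelled 6 h replicate 1 and replicate 2. ME1, the cytosolic malic enzyme that makes NADPH, had 180 and 125 at 6 h against 65 and 31 at 18 h. CAT, catalase, had 282 and 216 at 6 h against 142 and 113 at 18 h. AKR1C1, a steroid and aldehyde reductase, had 42 and 50 at 6 h against 11 and 4 at 18 h, both 18 h arrays being under the floor. IDH1, another source of NADPH, had 108 and 173 at 6 h against 79 and 71 at 18 h, resting on 6 h replicate 2 alone. GPX4, which reduces lipid peroxides, had 1768 and 734 at 6 h against 709 and 458 at 18 h and rested on the array labelled 6 h replicate 1 alone. Of the 13 lower enzymes 4 passed 1.5-fold against both 6 h arrays, 3 against each of them alone, and 3 against neither. Without the array labelled 6 h replicate 1 20 of the 41 were below and 5 above the remaining 6 h array, where 39.5% and 25.1% of all genes were. Of 12 genes of cholesterol synthesis 3 were lower (25.0%) and none higher, and none of the 3 passed 1.5-fold against both 6 h arrays. Of 68 solute carriers 15 were lower (22.1%) and 7 higher (10.3%). Of all genes 13.9% were lower and 12.2% higher. SLC2A3, a glucose transporter, had 60 and 48 at 6 h against 8 and -8 at 18 h. TFRC, the transferrin receptor that brings iron into cells, had 477 and 894 at 6 h against 343 and 252 at 18 h, with 6 h replicate 2 highest.

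The translation list of 41 genes held 12 lower (29.3%) and 5 higher (12.2%), with a median of -0.17, or -0.18 and -0.24 against those arrays. EIF2AK2 and WARS1, already counted with the interferon genes, are among the 5 higher. EIF4B, which helps to unwind the start of messenger RNAs, had 845 and 685 at 6 h against 346 and 312 at 18 h. Its level at 6 h was 2.57-fold and 2.08-fold that of the 18 h mean. EIF3E, a subunit of the initiation factor eIF3, had 702 and 268 at 6 h against 257 and 196 at 18 h, so it rested on the array labelled 6 h replicate 1. Of the 12 lower genes 3 passed 1.5-fold against both 6 h arrays and 4 against that array alone. Of 17 immediate early genes 4 were lower and 1 higher. JUN, a subunit of AP-1, had 63 and 86 at 6 h against 41 and 26 at 18 h. EGR1, a zinc finger factor of the early serum response, had 369 and 74 at 6 h against 68 and 38 at 18 h and rested on the array labelled 6 h replicate 1. Of 19 heat shock genes 4 were lower (21.1%) and 2 higher. DNAJB1, a cochaperone of HSP70, had 1612 and 566 at 6 h against 388 and 272 at 18 h. HSPA6, the strictly stress-induced HSP70, had 404 and 28 at 6 h against 40 and 41 at 18 h and overlapped, its high value standing on the array labelled 6 h replicate 1 alone.

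**Figure D4:**
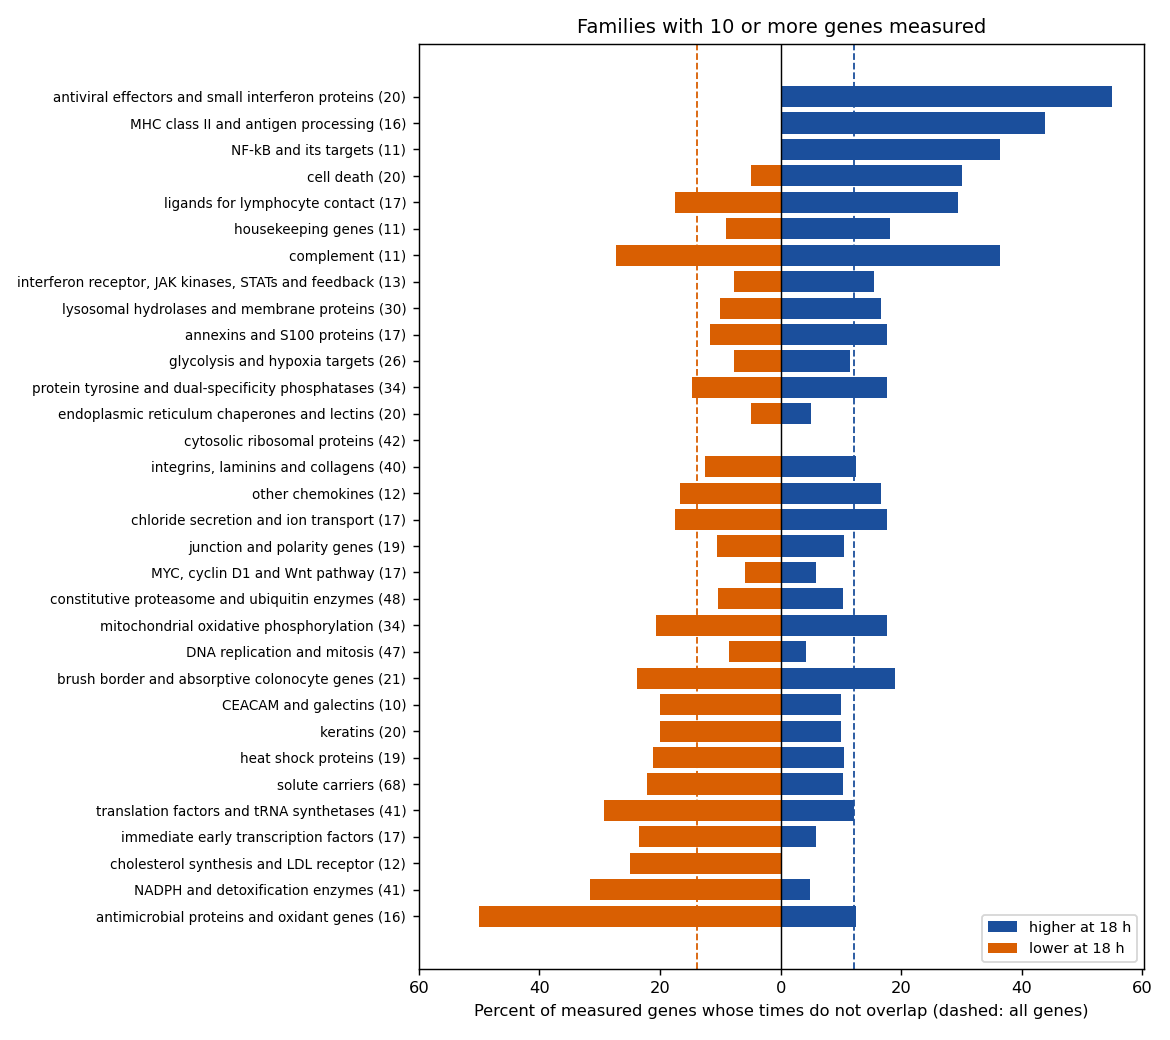
Percent of the measured genes of each family with 10 or more of them (number in brackets) whose times did not overlap, higher at 18 h to the right and lower to the left; dashed lines mark 12.2% and 13.9% of all genes. Antiviral effectors (55.0%) and MHC class II (43.8%) lead on the right and antimicrobial and oxidant genes (8 of 16) on the left, while ribosomal proteins show no bar.

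For some lists the median had opposite signs against the 6 h arrays, or no gene separated the times. Of 42 cytosolic ribosomal protein genes none separated the times. Their median was -0.13, but -0.71 against the array labelled 6 h replicate 1 and 0.44 against 6 h replicate 2. RPL10A had 2755 and 1291 at 6 h against 1295 and 1309 at 18 h. RPS7 had 2223 and 888 at 6 h against 965 and 848 at 18 h. The colon epithelium markers, keratins, mucins and oxidative phosphorylation genes changed the sign of their median in the same way, at 0.27, 0.01, 0.10 and 0.02 without the array labelled 6 h replicate 1. The 18 h arrays moved some medians too. Without 18 h replicate 1 the ribosomal median was 0.25 and that of the colon epithelium markers 0.04. Without 18 h replicate 2 these medians were -0.46 and -0.42. The summed intensity of the ribosomal proteins was 93554 and 41899 at 6 h and 45565 and 71929 at 18 h, in the same order over the arrays as the colon epithelium markers and the SD of the intensities. The part of this array-wide spread in any family was not tested. The mean differences of several single genes rested on the array labelled 6 h replicate 1. MYC, a driver of cell growth, had 20 and 447 at 6 h against 367 and 332 at 18 h. CCND1, the cyclin that starts the cell cycle, had 98 and 630 at 6 h against 617 and 556 at 18 h. CEACAM1, an adhesion molecule of the colon surface, had 107 and 956 at 6 h against 951 and 809 at 18 h. In all 3 genes 6 h replicate 2 was above both 18 h arrays.

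**Figure D5:**
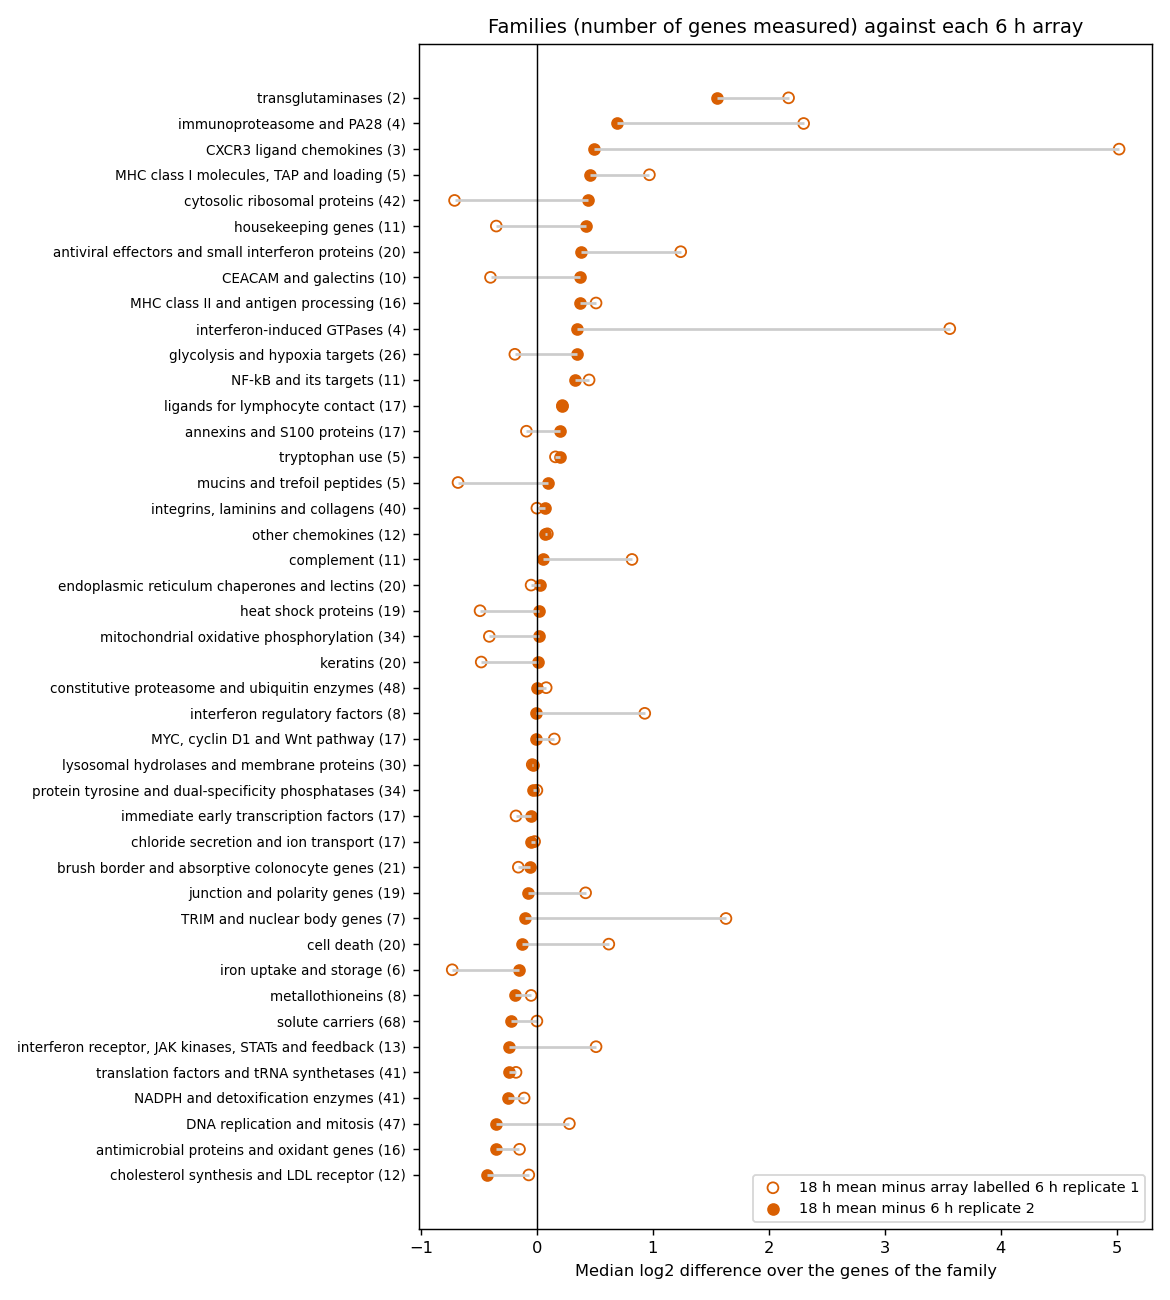
Median log2 difference of each family (number of genes in brackets) between the 18 h mean and the array labelled 6 h replicate 1 (open circles) or 6 h replicate 2 (filled circles). Circles lie on opposite sides of the vertical line for families such as cytosolic ribosomal proteins (-0.71 and 0.44) or TRIM genes (1.63 and -0.10). The medians of these families differed in sign between the 6 h arrays.

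The authors' deposited table of induced probe sets, chosen by them on these samples and therefore no independent evidence, holds 97 entries whose treated values equal those of the main table in all 4 columns. Of the 88 kept here, 24 were higher at 18 h and 3 lower, beside 575 higher and 682 lower of all 4933 probe sets compared. Of the 24, 15 exceeded both 6 h arrays by 1.5-fold and 7 exceeded the array labelled 6 h replicate 1 alone, and the median difference of the 88 was 0.32 on the log2 scale.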

How the data were processed

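Gene expression was read from the 4 treated arrays of T84 cells, with the untreated array beside them. The authors deposited linear intensities, 1 whole number per probe set. Per the labels' protocols, Trizol RNA was fragmented and biotinylated. The computation of the intensities and any scaling are not given in the sources used here. A second deposited table holds intensities of probe sets the authors selected as induced. Names come from the platform annotation, which can be old: 5649 of 7018 had a single symbol, 321 several and 1048 none, and only the first were named.

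Values were floored at 20 and put on the log2 scale with no pseudocount, so differences understate the change of dim genes. The 2 times were compared with limma's moderated test, version 3.58.1, under R 4.3.3 (Benjamini-Hochberg over 4933 probe sets, threshold 0.05), with no block, and checked on simulated data. The 2 arrays of a time limit the precision. Samples with the same replicate number did not deviate together (correlation -0.29). The alternatives were floors of 1, 50 and 100, a pseudocount of 1, other filters, quantile and median scaling, all 5 arrays, a replicate block and each array left out. Named genes were the 12 widest gaps each way among genes of at least 100 on both arrays of the brighter time, the 5 marker genes, 4 members of each family by gap and 3 by dependence on the array labelled 6 h replicate 1, and core pathway genes. The members, gene lists and rules were chosen with earlier results of these data known. Promoters are from RefSeq GRCh38.p14, where 2983 of 3721 genes matched.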

Additional observations from a re-analysis of the deposited data

Results flagged for a closer look

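A signal in data outside the comparison concerns the array labelled untreated. Among probe sets of the authors' deposited list that were higher at 18 h with at least 100 on both arrays there, 18 of 18 had an intensity on the array labelled untreated at least 3-fold above the control column of that list. The authors chose the list as induced, and these probe sets were kept for being higher at 18 h. Both choices favour a low control column, so the count is no independent evidence. The control column equalled the untreated column in 3 of 97 entries of the list. The cause was not tested.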

How the results depend on the processing

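No probe set passed an adjusted p of 0.05 in limma under floors of 50 or 1, the pseudocount, the filter on all 4 arrays, quantile or median scaling, all 5 arrays, the replicate block, or with any array left out. With a floor of 100, 5 passed, where many values are tied at the floor, among them HSD17B2 and MUC1, and without a filter 1 did. The replicate numbers come from the titles. The replicate block gave 0 calls and 102 unadjusted p under 0.05, against 168 without it, and a crossed pairing, added after seeing the data because same-numbered arrays had a correlation of -0.29, gave 33 calls, 30 of them higher at 18 h. Of the probe sets that did not overlap between the times, 575 were higher and 682 lower, against 321 and 311 with a floor of 100. With 1 array left out the counts were 1212 to 1599 higher and 1090 to 1952 lower, since 3 arrays overlap less often than 4. The count of interferon genes higher at 18 h, 42 of 97, was 47 to 66 with 1 array left out, the highest being without 6 h replicate 2.

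Directions turned mainly without the array labelled 6 h replicate 1. With 1 array left out in turn, the median ran from -0.68 to 0.10 for mucins, -0.48 to 0.01 for keratins, -0.18 to 0.03 for endoplasmic reticulum chaperones and -0.41 to 0.02 for oxidative phosphorylation, each at its upper end without that array. The log2 difference ran from -0.11 to 2.58 for CCND1, -0.12 to 3.04 for CEACAM1, -0.76 to 3.41 for ICAM1, -0.12 to 3.20 for IFIT3, -0.58 to 1.56 for JAK1, -0.36 to 4.13 for MYC, -0.32 to 4.35 for NOS2 and -0.54 to 2.26 for STAT3, at the lower end without it. It ran from -3.32 to 0.53 for HSPA6, -1.08 to 0.01 for RPL10A and -1.30 to 0.03 for RPS7, at the upper end without it. The glycolysis median ran from -0.19 (without 6 h replicate 2) to 0.36, and IFNGR1 from -0.94 to 0.51, the latter also without 6 h replicate 2. The cause was not tested. Values below the floor have no order.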

Other observations

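Growth and metabolism lists not described above showed further splits between the 6 h arrays. Of 47 DNA replication and mitosis genes 2 were higher at 18 h and 4 lower, with a median of 0.28 on the log2 scale against the array labelled 6 h replicate 1 and -0.35 against 6 h replicate 2. Without the first of these arrays, 29 of the 47 lay below 6 h replicate 2 on both 18 h arrays and 3 above it, where 39.5% and 25.1% of all genes did. TTK, a kinase of the spindle checkpoint, had 39 and 35 at 6 h against 24 and 19 at 18 h. CDC20, which activates the anaphase ligase, had 142 and 152 at 6 h against 87 and 114 at 18 h, resting on 6 h replicate 2 alone. Of 26 glycolysis and hypoxia genes 3 were higher and 2 lower, and the median was -0.19 and 0.35 against the same arrays. VEGFA, the vascular growth factor, had 34 and 62 at 6 h against 98 and 91 at 18 h. ADM, the vasodilator adrenomedullin and a target of hypoxia, had 690 and 806 at 6 h against 1056 and 1076 at 18 h, resting on the array labelled 6 h replicate 1 alone. ALDOC, an aldolase, had 435 and 423 at 6 h against 264 and 191 at 18 h, with replicates close at 6 h.

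Among 34 protein phosphatases 6 were higher (17.6%) and 5 lower (14.7%), near the shares of all genes. DUSP4, a phosphatase of MAP kinases, had 40 and 60 at 6 h against 18 and -4 at 18 h and was under the floor at 18 h. Of 40 integrin, laminin and collagen genes 5 were higher and 5 lower (12.5% each). ITGAE, the integrin chain of intraepithelial lymphocytes, had 109 and 72 at 6 h against 31 and 59 at 18 h, all dim values. The lysosomal list of 30 genes held 5 higher and 3 lower. CTSH, a lysosomal protease, had 465 and 282 at 6 h against 223 and 192 at 18 h, resting on the array labelled 6 h replicate 1 alone.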
